A study of Mus musculus with 16 samples.

Results

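The genes Gata1, Gata2 and Gata3 and the Gata cofactor gene Zfpm1 were examined as 4 loci in an ATAC-seq series of mouse hematopoietic stem and progenitor cells (HSPCs). ATAC-seq reads out DNA that is open to a transposase. A locus was the gene body with 20 kb on either side, except that 120 kb upstream of Gata2 were taken because its known enhancers lie far from the gene. Overlapping peaks of the 16 libraries, by 1 bp or more, were joined into regions, which gave 296215 in all and 122 at these loci. Of the 122 regions, 52 were at Gata2, 33 at Zfpm1, 27 at Gata3 and 10 at Gata1.

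Each of 4 genotypes had 4 libraries, and each library came from HSPCs of a pair of age-matched mice of the same genotype. All mice carried Ep300 fl/fl, a conditional allele of the gene for the acetyltransferase p300, and per the study's methods received poly(I:C) as young adults. WT was Ep300 fl/fl without Cre, P300KO was Mx1-Cre;Ep300 fl/fl, TET2KO was Ep300 fl/fl;Tet2-/- and P300KO_TET2KO was Mx1-Cre;Ep300 fl/fl;Tet2-/-. Mx1-Cre is driven by an interferon-responsive promoter, is not restricted to HSPCs, and was present only in the genotypes without p300, so that Cre and p300 loss cannot be told apart. Tet2, an enzyme that oxidizes methylated cytosine, was missing from the germ line on. The study asked how p300 loss alters the chromatin of Tet2-deficient HSPCs.

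Gata factors are zinc finger proteins that bind short DNA strings with GATA at the core. Gata2 maintains stem and early progenitor cells, Gata1 drives the erythroid, megakaryocytic and mast cell programs, and Gata1 replaces Gata2 at many sites as red cells mature. Gata3 is best known for T cell development and is also made in stem cells. Zfpm1, also named Fog1, is a zinc finger protein that binds Gata1 and Gata2 and not DNA, and is needed for red cells and megakaryocytes. Gata2 has well studied enhancers, among them an element 77 kb upstream of its distal promoter and an element 9.5 kb inside the gene, in which an E-box next to a GATA string is bound by Gata, Tal1 and their partners. For Gata1, elements about 3.5 kb on either side of its hematopoietic promoter and another about 25 kb upstream are known.

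Lists held between 86039 and 137335 peaks. They were longer in replicates 3 and 4 of every genotype than in replicates 1 and 2, which carry a label naming a peak file of their genotype with IDR in its name and are called set 1, with replicates 3 and 4 as set 2. IDR is a filter on peaks shared by replicates, and what else differed between the sets is not given in the sources used here. Replicates of set 1 had separate lists of unequal length, and every list of both sets began near a −log10 p of 2. The lists hold no read counts, so depth is unknown, list length may reflect depth or processing, and a region without a peak is one not detected in that list. Starts of 6 of 8 HSPC marker genes had a peak in all 16 libraries, with Kit at a median rank percentile of 96.3 and Flt3 at 97.6, while Ly6a had one in 15 libraries and the annotated Mecom start in 1. Of markers of other cells, 4 of 4 megakaryocyte genes, 3 of 5 erythroid genes, 1 of 4 mast cell genes and 1 of 4 neutrophil genes had a start with a peak in all 16. None of the 4 B cell or 4 T cell genes did, and Ms4a1, Slc4a1 and Tpsb2 had no peak in any library. The mean rank percentile of the megakaryocyte list was 89.0 and 89.8 in P300KO and P300KO_TET2KO beside 87.2 and 87.5 in WT and TET2KO. For the erythroid list it was 54.2 and 53.8 beside 52.6 and 52.8, and for the mast cell list 30.5 and 31.0 beside 27.5 and 27.8. In the mast cell list only Fcer1a, with a peak in 5 libraries, was higher in both genotypes without p300 (14.0 and 16.7 beside 2.8 and 0), while Mcpt8 was lower (46.6 and 45.3 beside 47.7 and 47.3), Cpa3 went both ways and Tpsb2 was at 0. The mean of the T cell list was lower without p300, at 11.6 in P300KO and 13.8 in P300KO_TET2KO beside 20.6 in WT and 18.7 in TET2KO. The other lists went both ways and ran from 29.1 to 35.3 for neutrophil and 7.3 to 14.8 for B cell genes over the genotypes.

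Rank percentile is used throughout as the level of a region. Within a library's list, peaks were ranked by −log10 p, so that 100 is the strongest peak of that list and 0 stands for no peak. It is a place in a list, not an amount of accessibility, and it moves when other peaks move.

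Sequences of the regions that carry the results are given first, to show which of them hold the strings that Gata factors bind. Each is the 200 bases around the median summit, on the forward strand of the RefSeq copy of the mm10 assembly. Capitals mark GATA strings, which were AGATAA or TGATAA read on either strand. They also mark the E-box, which was CATCTG read on either strand, and no E-box overlapped a GATA string in the windows printed.
Gata2 +9.5 kb element, chr6:88203120-88203319: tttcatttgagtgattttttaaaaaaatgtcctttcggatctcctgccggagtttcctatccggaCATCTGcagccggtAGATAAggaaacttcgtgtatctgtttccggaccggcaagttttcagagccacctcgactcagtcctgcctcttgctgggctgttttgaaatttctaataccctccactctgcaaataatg
Gata2 −77 kb element, chr6:88116944-88117143: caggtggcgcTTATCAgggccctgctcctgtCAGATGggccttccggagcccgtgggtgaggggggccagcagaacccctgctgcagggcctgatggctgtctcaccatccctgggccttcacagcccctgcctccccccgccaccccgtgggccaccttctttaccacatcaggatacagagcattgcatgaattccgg
Gata2 region at −46.2 kb, chr6:88147615-88147814: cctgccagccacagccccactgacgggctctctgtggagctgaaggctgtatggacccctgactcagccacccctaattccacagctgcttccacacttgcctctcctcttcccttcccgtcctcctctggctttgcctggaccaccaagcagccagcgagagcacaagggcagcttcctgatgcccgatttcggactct
Gata2 region at −27.6 kb, chr6:88166146-88166345: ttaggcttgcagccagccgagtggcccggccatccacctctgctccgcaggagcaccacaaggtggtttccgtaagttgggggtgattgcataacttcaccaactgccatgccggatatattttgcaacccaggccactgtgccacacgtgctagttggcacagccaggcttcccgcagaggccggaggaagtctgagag
Gata1 −3.5 kb element, chrX:7971375-7971574: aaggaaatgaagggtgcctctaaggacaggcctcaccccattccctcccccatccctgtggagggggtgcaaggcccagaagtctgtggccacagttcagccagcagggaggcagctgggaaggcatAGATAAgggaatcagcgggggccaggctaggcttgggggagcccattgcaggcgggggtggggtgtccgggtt
Gata1 +3.5 kb element, chrX:7964162-7964361: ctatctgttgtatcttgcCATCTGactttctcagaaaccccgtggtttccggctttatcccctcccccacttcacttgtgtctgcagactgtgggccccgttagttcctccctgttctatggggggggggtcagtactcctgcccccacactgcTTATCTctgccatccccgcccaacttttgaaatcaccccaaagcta
Zfpm1 region 11.6 kb downstream of the start, chr8:122293597-122293796: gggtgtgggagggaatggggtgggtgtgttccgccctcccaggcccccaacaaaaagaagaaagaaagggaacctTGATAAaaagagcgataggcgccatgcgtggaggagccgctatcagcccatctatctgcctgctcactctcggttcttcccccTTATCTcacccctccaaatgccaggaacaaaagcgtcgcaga

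The Gata2 +9.5 kb window held the E-box and, 8 bases after its end on the same strand, a GATA string, at chr6:88203185-88203204. Searched over their full length, the 122 regions held no other such pair, when the E-box was followed by AGATAA after 7 to 9 bases on either strand. In 300-base windows around the median summit, 46 of the 100435 regions with a peak in at least 8 libraries held this arrangement (0.0458%). The strongest summit of the 16 libraries lay a median of 28.0 bases from its middle, between 3.5 and 47.5 bases. The −77 kb window held a GATA string at position 11 and an E-box at position 32, counted from its first base, both on the reverse strand. Neither Gata2 region that ranked lower without Tet2 held a marked string in the 200 bases printed, although the 300-base window of the region at −46.2 kb held 1 E-box, while the Zfpm1 region that ranked higher without p300 held a GATA string on each strand. A match is a string in the reference and not a bound site, and its absence says only that these letters are not in this window.

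GATA strings were in the 300-base windows of 18 of the 67 member regions with a peak in at least 8 libraries (26.9%) and of 21.9% of all such regions. At the Zfpm1 locus 9 of 28 regions held one, with 3 GATA strings each in the regions 2.7 and 27.4 kb inside the gene. At Gata2 it was 5 of 24, at Gata1 3 of 4 and at Gata3 1 of 11. The E-box string was in 17 of the 67 (25.4%) and in 22.4% of all.

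The loci differed in the share of their regions that had a peak in every library. Of the 122 regions, 38 (31.1%) had a peak in all 16 libraries, beside 13.3% of all regions, and 35 had a peak in 1 library only. All 16 libraries shared 19 of the 33 Zfpm1 regions (57.6%), 15 of the 52 Gata2 regions (28.8%), 3 of the 27 Gata3 regions (11.1%) and 1 of the 10 Gata1 regions. That Gata1 region was the start of the neighbouring gene Hdac6, a deacetylase.

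Gata2 showed a chain of open regions from its far upstream side into the gene. The −77 kb element, the −3.9 kb element, both promoters and the +9.5 kb element had a peak in 16 of 16 libraries. No region had its summit within 1 kb of the −2.8 kb and −1.8 kb positions, where the nearest summits were 1257 and 1865 bp away. The 2 further regions of highest rank lay at the edge of the window, at the start of Rpn1, a gene of protein glycosylation, at −109.4 kb (mean rank percentile 96.0) and in a region at −118.7 kb (94.5).

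**Figure D1:**
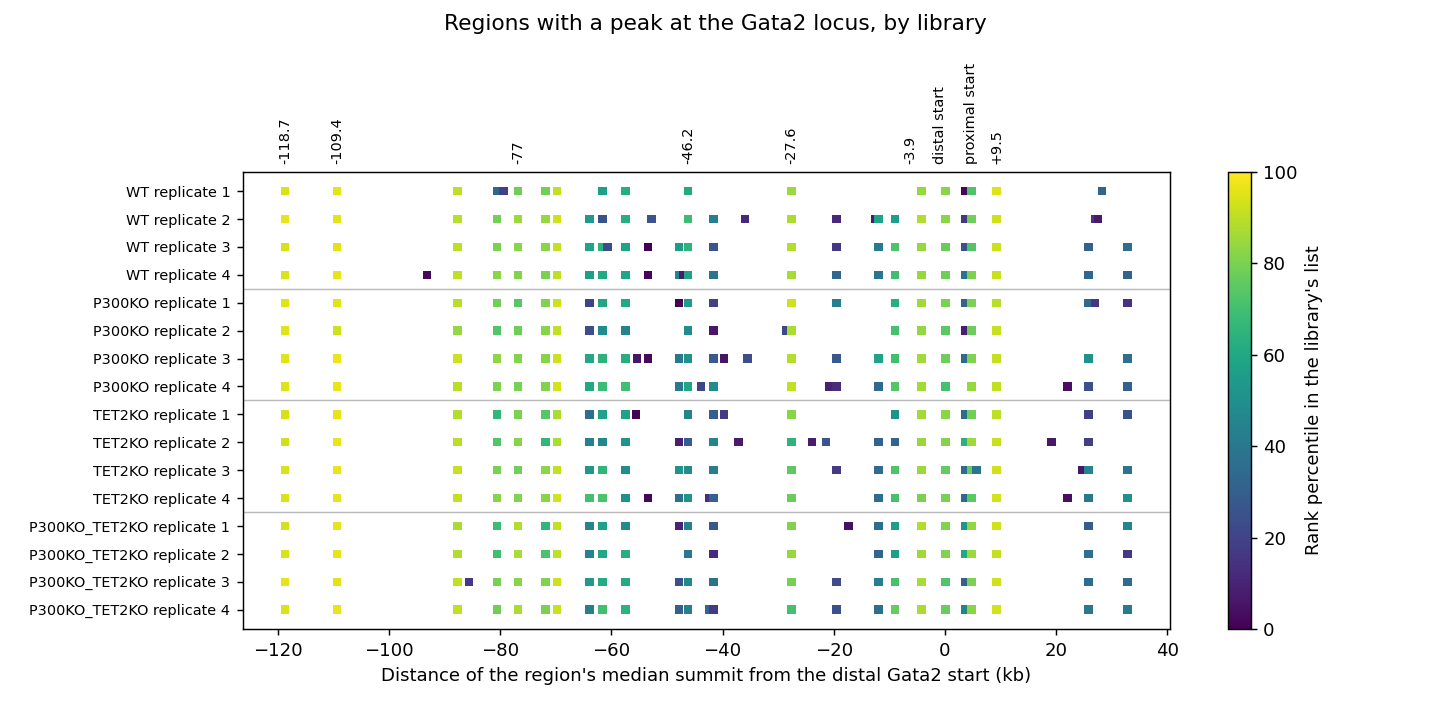
Regions with a peak at the Gata2 locus. The x axis is the distance of the median summit from the distal Gata2 start in kb, each row is a library, grouped by genotype, and colour is the rank percentile within that library's list (0 to 100). Labels mark the elements, the promoters and the other named regions, which all form unbroken columns over all 16 rows. Regions without a label lie between them, some also present in all 16 rows, as at −87.7 kb, and others as weak peaks of 1 library.

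The +9.5 kb element (chr6:88202421-88203750, an intron of Gata2) was the strongest of the 5. Its rank percentiles were 94.9, 92.8, 92.4 and 91.5 in WT replicates 1 to 4 and 89.1, 91.5, 91.3 and 90.8 in P300KO. They were 90.02, 91.7, 92.8 and 93.0 in TET2KO and 92.6, 91.1, 92.7 and 93.1 in P300KO_TET2KO. Every library thus had it between 89.1 and 94.9, the genotypes overlapped, and the SD over all 16 was 1.38. Effects of p300 loss and of Tet2 loss are the mean of the 4 differences between libraries without and with the gene, taken within each set and each state of the other gene. For this element the effect of p300 loss was −0.865 percentile points (exact permutation within sets, p = 0.235, adjusted over all 100435 regions 0.635), and that of Tet2 loss was 0.336 points (exact permutation p = 0.651, adjusted 0.912). Both depended on the ranking. Ranked by fold enrichment they were −5.89 points (exact permutation p = 0.00463) and −2.61 points (exact permutation p = 0.248), and with peaks of −log10 q of at least 2 alone they were 0.00617 points (exact permutation p = 0.988) and 1.72 points (exact permutation p = 0.0108). Leaving out 1 library gave −1.17 to −0.565 and 0.0348 to 0.637 points.

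The −77 kb element (chr6:88116341-88117568, intergenic) lay lower. Its rank percentiles were 78.1, 85.2, 82.3 and 81.0 in WT and 73.8, 77.8, 81.6 and 79.6 in P300KO. They were 80.4, 81.9, 78.7 and 80.5 in TET2KO and 88.2, 86.8, 82.1 and 87.3 in P300KO_TET2KO. All P300KO_TET2KO libraries were above all TET2KO libraries, with means of 86.1 ± 2.72 and 80.4 ± 1.33 (SD, n = 4 each), and P300KO at 78.2 ± 3.33 was the lowest genotype beside WT at 81.7 ± 2.93. The effect of p300 loss over both Tet2 states was 1.15 points (exact permutation p = 0.542, adjusted 0.843) and that of Tet2 loss was 3.32 points (exact permutation p = 0.125, adjusted 0.552). Ranked by fold enrichment the p300 effect turned to −2.03 points. Leaving out 1 library moved it from 0.265 points, without WT replicate 1, to 2.03, without WT replicate 2. Without WT replicate 2 the Tet2 effect was 4.20 points (exact permutation p = 0.0478). The differences behind the Tet2 effect were −0.467 and −2.08 points with p300 and 11.7 and 4.12 points without it.

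The −3.9 kb element (chr6:88189511-88190136) lay beside a start of the noncoding gene Gm38708, with its median summit 4.2 kb upstream of the distal Gata2 start. It ranked between 79.7 and 88.5. The means were 85.3 in WT and 85.5 in P300KO, and without Tet2 they were 83.9 in TET2KO and 87.2 in P300KO_TET2KO. The genotypes overlapped, and the largest SD within a genotype was 2.88, in TET2KO. Neither the effect of p300 loss, 1.75 points (exact permutation p = 0.130), nor that of Tet2 loss, 0.141 points (exact permutation p = 0.904), passed the test. Without WT replicate 2 the p300 effect was 2.28 points (exact permutation p = 0.00926), without TET2KO replicate 4 it was 1.05 points (exact permutation p = 0.218), and ranked by fold enrichment both effects turned sign, to −2.13 and −2.16 points. The p300 effect was 5.56 points when ranked among the regions of all 16 libraries (exact permutation p = 0.0309) and 4.42 points with peaks of −log10 q of at least 2 alone (exact permutation p = 0.0355).

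Gata2 is read from a distal promoter used in neural and blood cells and from a proximal, general promoter. The distal promoter (chr6:88193438-88194610) ranked at 82.2, 82.7, 76.8 and 77.9 in WT and 79.9, 74.5, 78.1 and 70.4 in P300KO. It ranked at 82.3, 81.4, 76.0 and 79.6 in TET2KO and 80.9, 81.0, 72.4 and 77.2 in P300KO_TET2KO, so the genotypes overlapped. On it the effect of p300 loss was −3.05 points (exact permutation p = 0.0324), which did not pass after adjustment over all regions (0.292).

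The proximal promoter (chr6:88198136-88198920) ranked at 71.9, 78.2, 72.7 and 80.2 in WT and 80.4, 77.4, 80.8 and 84.0 in P300KO. It ranked at 78.4, 85.5, 76.6 and 74.7 in TET2KO and 83.5, 85.3, 80.4 and 82.4 in P300KO_TET2KO. Libraries without p300 were thus between 77.4 and 85.3 and those with it between 71.9 and 85.5. Loss of p300 had an effect of 4.52 points (exact permutation p = 0.0154, adjusted over all regions 0.228). The signs at the 2 promoters were opposite. Ranked by fold enrichment instead of −log10 p, the effect was −10.7 points at the distal promoter (exact permutation p = 0.00154) and 1.895 at the proximal promoter (exact permutation p = 0.517), and with peaks of −log10 q of at least 2 alone the distal effect was −0.411 (exact permutation p = 0.869). When each library was left out in turn, the unadjusted p of the distal promoter exceeded 0.05 in 8 of 16 cases: any WT library, P300KO replicate 2 or 4, TET2KO replicate 4 or P300KO_TET2KO replicate 3. Effects of Tet2 loss were 1.03 points at the distal promoter (exact permutation p = 0.429) and 2.64 at the proximal promoter (exact permutation p = 0.168). The first was 5.46 points with peaks of −log10 q of at least 2 alone (exact permutation p = 0.0478) and −2.66 ranked by fold, and the second was 3.58 points without WT replicate 4 (exact permutation p = 0.0386).

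Around the −77 kb element lay further strong regions, chosen here after their values were seen. The intergenic regions at −87.7 kb (chr6:88105830-88107158) and −69.8 kb (chr6:88123226-88124523) had a peak in all 16 libraries and mean rank percentiles of 89.6 and 91.2, both above the 81.6 of the −77 kb element. Their effects of p300 loss were −1.18 points (exact permutation p = 0.153) and 1.44 points (exact permutation p = 0.0309, adjusted over all regions 0.287). Effects of Tet2 loss were 0.278 and −1.16 points (exact permutation p = 0.750 and 0.147). Nearer to the element, the intergenic regions at −80.6 and −71.9 kb had a peak in all 16 libraries. Their mean rank percentiles were 74.0 and 78.3. There the effects of p300 loss were 4.45 and −0.674 points (exact permutation p = 0.816 and 0.593). Those of Tet2 loss were 0.873 and −6.015 points (exact permutation p = 0.997 and 0.0340, adjusted for the second 0.370).

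Gata1 had few regions with a peak, with a mean of 2.62 per library in set 1 and 5.75 in set 2. The hematopoietic promoter (chrX:7967866-7968091) had a peak in 5 of 16 libraries, all in set 2, with a highest rank percentile of 32.4. P300KO had it in 2 of 4 libraries and each other genotype in 1 of 4. A neighbouring region at −0.5 kb (chrX:7968256-7968644) had a peak in 4 libraries, at 25.8 in P300KO replicate 1 and 36.5 in P300KO_TET2KO replicate 1 of set 1 and at 4.63 in WT replicate 3 and 15.2 in TET2KO replicate 3 of set 2. Both were under the minimum of 8 libraries for a test.

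The 3 upstream and intronic Gata1 elements were of middle rank and followed the sets. The +3.5 kb element (chrX:7963666-7964647, inside the gene) had a peak in 13 libraries, the −3.5 kb element (chrX:7971192-7971800, in an intron of the longer annotated gene) in 12 and the −25 kb element (chrX:7992779-7993234, intergenic) in 9. All 8 libraries of set 2 had each of them, while in set 1 the counts were 5, 4 and 1 of 8. Mean rank percentiles were 24.3 in set 1 and 50.9 in set 2 for the +3.5 kb element, 14.7 and 48.2 for the −3.5 kb element and 2.67 and 41.0 for the −25 kb element.

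Within set 2, where the −3.5 kb element was always present, it ranked at 51.5 and 36.9 in WT and 64.0 and 55.9 in P300KO. It ranked at 35.3 and 35.7 in TET2KO and 52.2 and 54.4 in P300KO_TET2KO. Libraries without p300 were above those with it in set 2, and in set 1 the order did not hold, since neither P300KO library had the peak and 1 WT and 1 TET2KO library did. Over both sets the effect of p300 loss was 8.46 points at −3.5 kb (exact permutation p = 0.236), 7.92 at +3.5 kb (exact permutation p = 0.356) and 1.16 at −25 kb (exact permutation p = 0.806). Single libraries moved these values: leaving out WT replicate 1 gave 4.58 points at −3.5 kb and 0.484 at +3.5 kb, leaving out WT replicate 2 gave 12.3 points (exact permutation p = 0.0278) and 15.4, and leaving out P300KO replicate 1 gave −1.51 points at −25 kb. Over all 16 libraries left out in turn the ranges were 4.58 to 12.3, 0.484 to 15.4 and −1.51 to 3.83 points. Effects of Tet2 loss on them were 3.13, −0.632 and 1.97 points (exact permutation p = 0.616, 0.924 and 0.639). The unadjusted p of p300 loss at −3.5 kb was 0.00926 with peaks of −log10 q of at least 2 alone (exact permutation, 13.2 points).

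**Figure D2:**
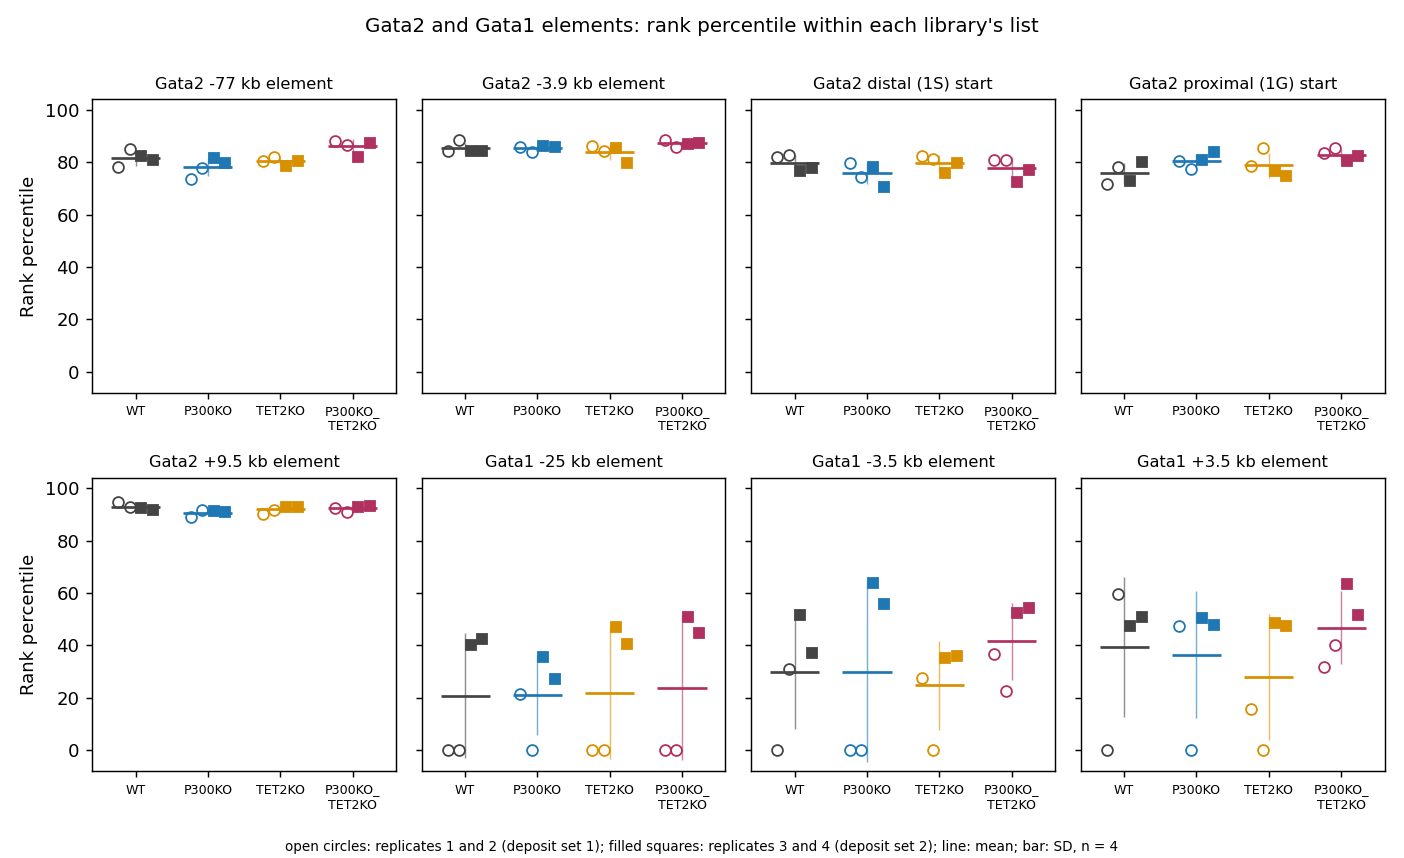
Rank percentile (0 to 100, y axis) of 5 Gata2 and 3 Gata1 elements and promoters in each library, by genotype. Open circles are set 1, filled squares set 2, lines means and bars SD (n = 4). The Gata2 elements lie between 70.4 and 94.9 in all libraries, while the Gata1 elements are at 0 in several libraries of set 1 and in none of set 2.

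Gata3 had a peak in all 16 libraries at 3 places. The strongest region (chr2:9879131-9879928) lay 1.1 kb upstream of that start, in an intron of the longer transcript, and ranked between 92.4 and 98.3 in all 16 libraries. The region at the proximal start itself (chr2:9878348-9879001) had a peak in 15 libraries and ranked at a mean of 65.1. WT replicate 1 lacked it, and the 15 others lay between 58.8 and 80.5. The region over the annotated gene start, 10.8 kb farther upstream (chr2:9888895-9890113), was chosen after its values were seen, because the region with the summit nearest to that start was a weak one with a peak in 3 libraries. It ranked between 66.8 and 80.4 in all 16 libraries, and its means were 71.1 in WT and 72.1 in P300KO beside 74.2 in TET2KO and 77.8 in P300KO_TET2KO.

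A further Gata3 region, 7.2 kb inside the gene (chr2:9870849-9871762), ranked at a mean of 70.9 in set 1 and 84.0 in set 2. Its effect of Tet2 loss was 5.46 points (exact permutation p = 0.0401) and that of the gene start region was 4.44 points (exact permutation p = 0.0247). After adjustment over all regions these were 0.394 and 0.338. The differences behind the 5.46 points were 2.31 (set 1) and 0.498 (set 2) with p300. Without p300 they were 16.4 (set 1) and 2.59 (set 2), so most of it came from set 1 without p300. Effects of p300 loss on the proximal start were 7.27 points (exact permutation p = 0.855) and of Tet2 loss 10.1 points (exact permutation p = 0.364). Both values rested on the missing peak of WT replicate 1, and without that library they were −2.65 and 0.181 points.

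Zfpm1 had the highest share of regions present in every library, as given above. Its start (chr8:122280631-122282215) ranked between 94.2 and 98.3 in all 16 libraries, and genotype means ran from 96.2 ± 2.33 in TET2KO to 97.4 ± 0.675 in WT (SD, n = 4 each). The effect of p300 loss was −0.337 points (exact permutation p = 0.480) and that of Tet2 loss −0.394 points (exact permutation p = 0.444). Ranked by fold enrichment, these were −6.92 points (exact permutation p = 0.00617) and −6.71 points (exact permutation p = 0.0216). The next strongest regions were introns 49.2 kb (chr8:122330643-122331810, mean 91.0) and 33.0 kb (chr8:122314644-122315445, mean 87.7) into the gene, both with a peak in all 16 libraries. At 33.0 kb, libraries without Tet2 ranked 3.83 points higher (exact permutation p = 0.00309, adjusted over all regions 0.220).

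**Figure D3:**
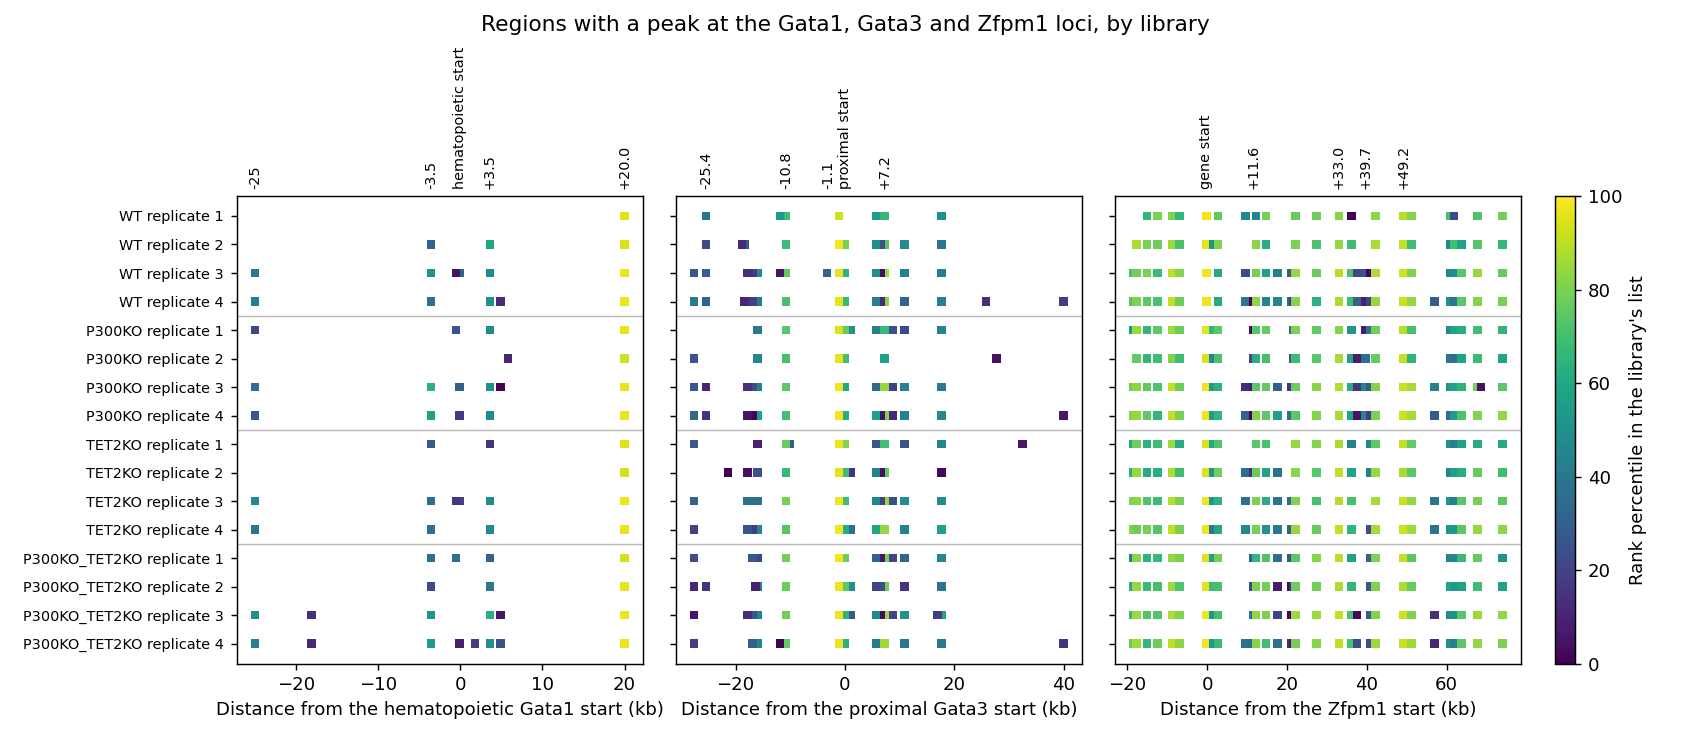
Regions with a peak at the Gata1, Gata3 and Zfpm1 loci. The x axes are distances from the hematopoietic Gata1, the proximal Gata3 and the Zfpm1 start in kb, each row is a library, grouped by genotype, and colour is the rank percentile (0 to 100). Zfpm1 has 19 columns present in every row, Gata3 has 3, and Gata1 has 1, at the Hdac6 start.

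The regions with a peak at each locus were next counted in each library. At Zfpm1, WT libraries had 20, 22, 28 and 31 regions and P300KO libraries 27, 26, 32 and 31. TET2KO libraries had 24, 27, 27 and 28 and P300KO_TET2KO libraries 27, 28, 29 and 31. Within set 1, libraries without p300 had 26 to 28 regions and those with it 20 to 27, and within set 2 the ranges were 29 to 32 and 27 to 31.

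Means at Zfpm1 were 29.0 ± 2.94 in P300KO, 28.75 ± 1.71 in P300KO_TET2KO, 26.5 ± 1.73 in TET2KO and 25.25 ± 5.12 in WT (SD, n = 4 each), and neighbours in this order did not differ by more than their SD except P300KO_TET2KO and TET2KO. The effect of p300 loss was 3.0 regions (exact permutation within sets, p = 0.00617). Differences in the 4 combinations of set and Tet2 state were 5.5, 2.0, 2.0 and 2.5 regions, all upward. Adjusted over 21852 protein-coding genes with 20 kb on either side the p was 0.906. The call at the unadjusted p was lost when labels were permuted over both sets (p = 0.0967, exact permutation) and with the strongest 50000 peaks of each list (1.25 regions, exact permutation p = 0.139). Lists were longer on average without p300 in 2 of the 4 combinations. In set 1 the P300KO lists held 100395 and 86039 peaks beside 98544 and 110055 in WT, and the P300KO_TET2KO lists held 96986 and 98478 beside 91908 and 93922 in TET2KO. In set 2 they held 135726 and 134237 beside 131041 and 132722, and 131832 and 130610 beside 137335 and 132155. The part of list length in the count was not tested beyond the strongest 50000 peaks. The means of the megakaryocyte, erythroid and mast cell lists, given above, were also higher without p300, the last through Fcer1a. That of the T cell list was lower without p300. The part of these lists in this result was not tested. In the bulk lists, more cells with an open region and a more open region in each cell cannot be told apart.

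**Figure D4:**
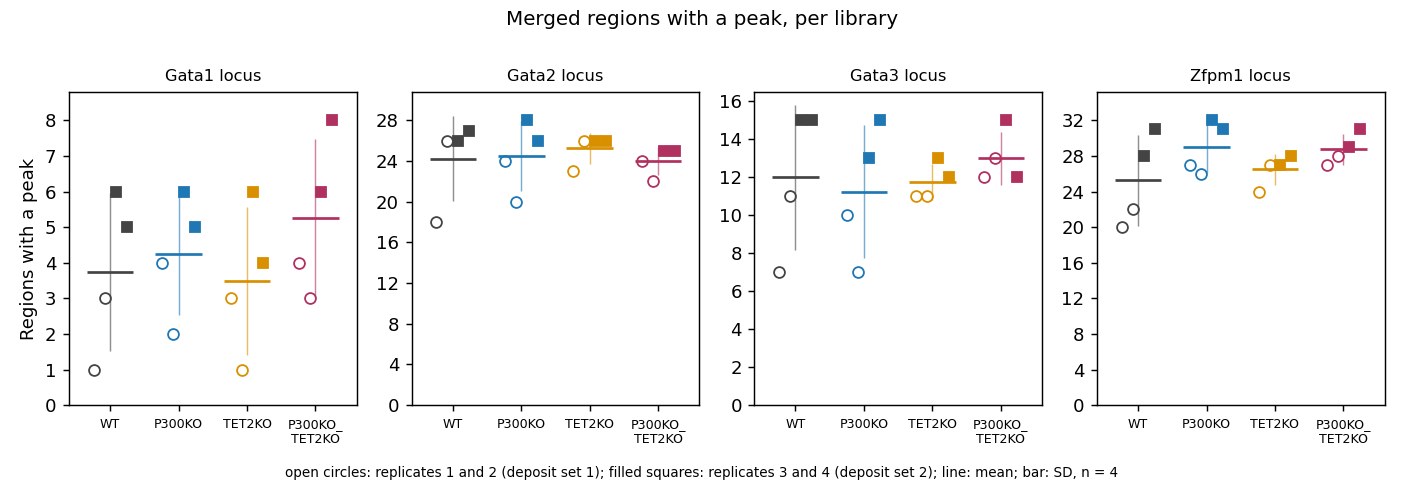
Number of merged regions with a peak at each locus (y axis, from 0) in each library, by genotype. Open circles are set 1, filled squares set 2, lines means and bars SD (n = 4). At every locus set 2 lies higher on average, from 5.75 against 2.62 regions at Gata1 to 29.6 against 25.1 at Zfpm1.

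At Gata2, libraries had between 18 (WT replicate 1) and 28 (P300KO replicate 3) regions. Genotype means ran from 24.0 in P300KO_TET2KO to 25.25 in TET2KO. The effect of p300 loss was −0.5 regions (exact permutation p = 0.708) and that of Tet2 loss 0.250 (exact permutation p = 0.921). Gata3 had between 7 and 15 regions, with effects of 0.250 (exact permutation p = 0.861) and 0.750 (exact permutation p = 0.551). Gata1 had between 1 and 8 regions, with effects of 1.125 (exact permutation p = 0.108) and 0.375 (exact permutation p = 0.656). With a region counted only when at least 50% of it was covered by peaks, the p300 effect at Gata1 was 1.75 regions (exact permutation p = 0.00463). At Zfpm1 the effect of Tet2 loss was 0.5 regions (exact permutation p = 0.713). Leaving out 1 library gave Tet2 effects of 0.125 to 0.625 regions at Gata1, 0.25 to 1.25 at Gata3 and 0.125 to 0.875 at Zfpm1.

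For P300KO_TET2KO against TET2KO, which compares libraries that all lack Tet2, the differences were 1.75 regions at Gata1, −1.25 at Gata2, 1.25 at Gata3 and 2.25 at Zfpm1 (exact permutation over 70 regroupings, p = 0.429, 0.371, 0.314 and 0.200). The smallest p that this design allows is 0.0286. None passed. Leaving out 1 library gave 0.833 (without P300KO_TET2KO replicate 4) to 2.58 regions at Gata1 and −2.0 (without TET2KO replicate 1) to −0.583 (without P300KO_TET2KO replicate 2) at Gata2. It gave 0.583 (without P300KO_TET2KO replicate 3) to 1.67 at Gata3 and 1.42 (without TET2KO replicate 1) to 2.83 at Zfpm1. Without TET2KO replicate 2 the Gata1 difference was 0.917.

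Regions that 4 of 4 libraries had in a genotype and 0 of 4 had in its comparator were then counted, out of those that 4 of 4 libraries had in either. For P300KO_TET2KO against TET2KO, 0 of 61 member regions were gained, beside 0.227% of all, and 0 were lost, beside 0.0487%. For P300KO against WT, 0 of 52 were gained (0.0638% of all) and 0 lost (0.0507%). For TET2KO against WT, 0 of 52 were gained (0.0644%) and 1 was lost (0.0322%). For P300KO_TET2KO against P300KO, 0 of 62 were gained (0.249%) and 1 was lost (0.117%). These contrasts share libraries, and each of the 2 counts is a single region chosen by its values.

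The region lost in TET2KO lay 25.4 kb upstream of the proximal Gata3 start (chr2:9903876-9904249, intergenic). Its rank percentiles in WT were 40.5, 20.8, 29.1 and 31.1, and all 4 TET2KO libraries were at 0. In P300KO it was at 0, 0, 10.4 and 15.4 and in P300KO_TET2KO it was at 15.4 in replicate 2 and at 0 in the others. It was thus present in 7 of 16 libraries, in all of WT and in part of both genotypes without p300.

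The region lost in P300KO_TET2KO against P300KO lay in an intron of Zfpm1, 39.7 kb from the start (chr8:122321660-122321976). P300KO libraries had it at 7.46, 35.7, 46.4 and 46.4 and WT libraries at 0, 0, 25.2 and 9.10. It was at 0 in all 8 libraries without Tet2. The contrast of P300KO and P300KO_TET2KO chose this region. In the other contrast of Tet2, both set 1 WT libraries were at 0 like the TET2KO libraries, and both set 2 WT libraries had the peak.

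A stricter pattern was searched for in the 67 member regions with a peak in at least 8 libraries: both libraries without a gene above, or both below, the 2 others in all 4 combinations of set and the other gene. This order by itself gives the smallest p of the permutation test, 0.00154, so the p adds nothing to it. For p300 loss 1 member region was higher, beside 0.659% of all 100435 regions, and 0 were lower, beside 0.606%. For Tet2 loss 0 were higher, beside 0.49%, and 2 of 67 (2.99%) were lower, beside 0.361%.

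Both regions that ranked lower without Tet2 lay in the upstream stretch of Gata2 between the −77 kb element and the promoters. The region at −27.6 kb (chr6:88165844-88166646, intergenic) was the stronger. It ranked at 85.1, 87.8, 88.9 and 86.8 in WT and 92.4, 87.2, 88.7 and 90.9 in P300KO. It ranked at 82.1, 64.5, 75.3 and 77.02 in TET2KO and 81.1, 84.1, 79.1 and 70.5 in P300KO_TET2KO. The 8 libraries with Tet2 lay between 85.1 and 92.4 and the 8 without it between 64.5 and 84.1, with no overlap. The region was chosen for its order by Tet2 state, so these values and the Tet2 effects below are a description.

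The effect of Tet2 loss on that region was −11.8 points, from differences of −13.1, −11.7, −7.24 and −15.0 points in the 4 combinations. It was −8.70 points when ranked by fold enrichment, −10.1 points with peaks of −log10 q of at least 2 alone and −28.5 points when ranked among the regions of all 16 libraries. Its effect of p300 loss was 3.30 points (exact permutation p = 0.222).

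The region at −46.2 kb (chr6:88147082-88148073, intergenic) ranked in the middle of the lists. It was at 60.3, 68.6, 64.6 and 57.8 in WT and 54.6, 48.6, 51.1 and 59.2 in P300KO. It was at 45.3, 28.4, 48.1 and 51.4 in TET2KO and 43.7, 40.4, 46.8 and 42.8 in P300KO_TET2KO. WT was the highest genotype, P300KO was between, and TET2KO and P300KO_TET2KO had means of 43.3 ± 10.2 and 43.4 ± 2.67 (SD, n = 4 each).

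There the effect of Tet2 loss was −14.7 points, with differences of −27.6, −11.4, −9.57 and −10.3 points in the 4 combinations. It was −7.79 points with peaks of −log10 q of at least 2 alone (exact permutation p = 0.174). This region too was chosen for its order by Tet2 state, which fixed the main test, so its Tet2 values are a description. Both regions had a peak in all 16 libraries, so the difference is one of rank and not of presence.

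The region that ranked higher without p300 lay in an intron of Zfpm1, 11.6 kb from the start (chr8:122293464-122293898). WT libraries were at 0, 0, 0 and 0.931 and P300KO libraries at 3.72, 20.98, 7.24 and 1.01. TET2KO libraries were at 0, 13.8, 0 and 0 and P300KO_TET2KO libraries at 30.3, 21.7, 39.4 and 33.8. All 8 libraries without p300 had the peak and 2 of the 8 with p300 did, and P300KO_TET2KO was above every other library.

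Its effect of p300 loss was 17.9 points, 8.003 points with Tet2 and 27.9 points without Tet2. These values are a description, since the region reached the minimum of 8 libraries through those without p300 and was then chosen for its order. Ranked by fold enrichment the effect was 7.75 points. In P300KO the peak was near the bottom of 2 of the 4 lists, at 3.72 and 1.01.

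**Figure D5:**
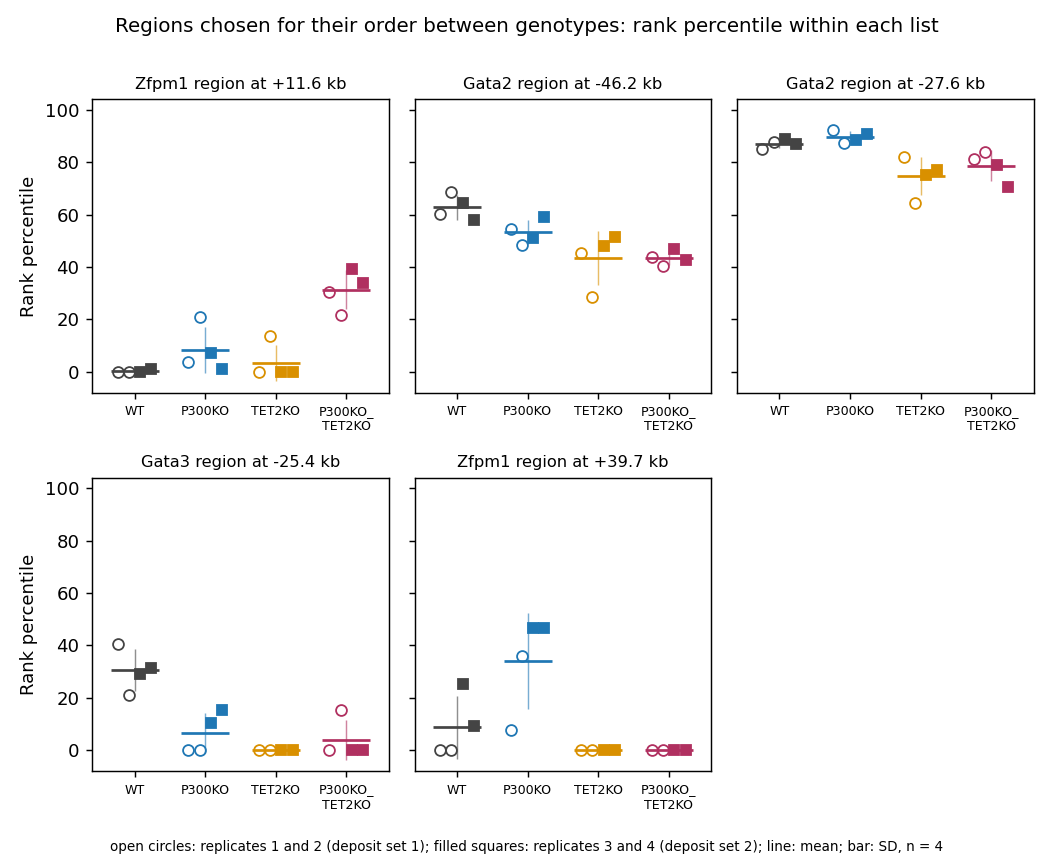
Rank percentile (0 to 100, y axis, 0 for no peak) of the 5 regions chosen by their order or presence between genotypes, in each library. Open circles are set 1, filled squares set 2, lines means and bars SD (n = 4). In both Gata2 regions TET2KO and P300KO_TET2KO lie lower than WT, and in the Zfpm1 region at +11.6 kb P300KO_TET2KO lies above all other genotypes.

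By the unadjusted test at 0.05, 8 of the 67 member regions ranked higher without p300 (11.9%), beside 8.59% of all regions, and 3 ranked lower (4.48%), beside 5.28%. For Tet2 loss, 7 ranked higher (10.4%), beside 7.64%, and 3 ranked lower (4.48%), beside 4.04%. These shares were near the background. Among the member regions past this unadjusted threshold, from which a pair was chosen after their values were seen, the largest p300 effect was 24.7 points, in a Zfpm1 intron (chr8:122283434-122283948), with means of 13.2 ± 26.3 in WT and 56.0 ± 7.87 in P300KO (SD, n = 4 each). This rests on peaks missing in WT: 3 of 4 WT libraries were at 0, and WT replicate 2, at 52.6, lay within the range of the other genotypes. TET2KO had a mean of 51.7 ± 8.09 there, near the 58.2 ± 6.73 of P300KO_TET2KO. The largest Tet2 effect was 24.96 points, beside the proximal Gata2 promoter (chr6:88197130-88197739), where WT and P300KO had means of 19.98 ± 15.3 and 18.5 ± 16.9 and TET2KO and P300KO_TET2KO had 41.8 ± 14.7 and 46.6 ± 12.45. After adjustment over all 100435 regions 0 of the 67 passed for either gene, and neither did any other region, with lowest adjusted p values of 0.122 for p300 and 0.181 for Tet2.

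Partners and relatives of the Gata factors were set beside the members, with 18 genes and 20 kb on either side: factors that bind with Gata (Tal1, Lyl1, Lmo2, Ldb1, Tcf3, Tcf12, Cbfa2t3), other blood factors (Runx1, Fli1, Erg, Spi1, Klf1, Nfe2, Gfi1b) and relatives (Zfpm2, Gata4, Gata5, Gata6). Of the 18, 1 had more regions without p300 at an unadjusted p of 0.05 and 0 had fewer, beside 3.01% and 1.67% of 21852 genes. Their median effect was 0.5 regions, beside 0.0 for all genes. For Tet2 loss 1 had more and 0 had fewer, beside 2.39% and 1.93%, with a median effect of 0.812 regions. For P300KO_TET2KO against TET2KO 0 had more and 0 had fewer, beside 0.192% and 0.243%, with a median of 0.250. Of the 4 members, Zfpm1 alone was past that unadjusted threshold, for p300 loss.

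The gene past it in both effects was Tcf12, which encodes an E protein that pairs with Tal1. P300KO_TET2KO libraries had a mean of 21.25 regions there, beside 15.5 in TET2KO, 15.25 in P300KO and 14.5 in WT. The effects were 3.25 regions for p300 loss (exact permutation p = 0.0463, adjusted over all genes 0.989) and 3.5 for Tet2 loss (exact permutation p = 0.0201, adjusted 1.0). Among the close partners of Gata2, Tal1 differed by 0.250 and 0.5 regions and Lmo2 by 0.875 and −0.875 regions for p300 and Tet2 loss.

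As a description of which promoters ranked alike across the 16 libraries, the 3 genes with the highest Pearson correlation with each member's start, after removing the mean of each set, were listed among 12889 genes. For the distal Gata2 promoter these were Mboat2, Ptpn11 and Camsap3 (r = 0.892, 0.857 and 0.856) and for Zfpm1 they were Agbl5, Ceacam1 and Nek1 (0.934, 0.923 and 0.896). For Gata1 they were Sharpin, Maf1 and Chmp2b (0.689, 0.689 and 0.682), and for the proximal Gata3 start Gins4, Casp4 and Arl13b (0.985, 0.981 and 0.98). The values of all 16 points share their lists, and in Gata3 the pattern is led by WT replicate 1, where the peak is missing. The Gata1 values rest on the 8 libraries of set 2, of which 5 have a peak at its start, since all 8 of set 1 are at 0.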

How the data were processed

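Per the labels and the study's methods, HSPCs were sorted from bone marrow, frozen, thawed and processed by an Omni-type ATAC-seq protocol. The authors trimmed reads (cutadapt 1.9.1), aligned them to mm10 (Bowtie2 2.2.6), removed duplicates, shifted read ends for the transposase and called peaks in every library separately (MACS2 2.1.0). The deposited lists give the fold enrichment of a summit, a ratio to the local background, and its −log10 p and −log10 q within 1 library. They hold no counts, so values are not comparable between lists and ranks within a list were used instead. Read depth is unknown, and list length limits which regions could be seen.

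Summits of the same interval counted as 1 peak, with the values of the strongest. Lists were merged at 1 bp of overlap. Genes, starts and annotation came from GENCODE M21. A region's distance is that of its median summit from the distal Gata2, hematopoietic Gata1, proximal Gata3 or Zfpm1 start. The Gata1 rule would have picked the start of a partial transcript, so the start of the main transcript was used, and the proximal Gata3 start was added. Elements were matched to the region with the nearest summit within 1 kb. Also named were the 2 further regions of highest mean rank at each locus, every region gained, lost or ordered by genotype as described, and the 3 genes most alike per start. Members, lists and tests were chosen with earlier results of these data known.

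Tests were two-sided exact permutations: 1296 arrangements within sets and the state of the other gene, or 70 regroupings for the single contrast. Regions with a peak in at least 8 libraries, and genes with 20 kb on either side, were all tested with Benjamini-Hochberg adjustment and a threshold of 0.05. For Gata2 the adjusted value covers 20 kb on either side, not the longer window. The labels give a pool of mice for each library but no culture or batch, so p-values measure the spread between these libraries. Alternatives were the strongest 50000 peaks of each list, only peaks with −log10 q from 2 up, 50% of a region covered, ranks by fold or among regions of all 16 libraries, other permutations, a replicate block and leaving out each library. Deviations from genotype means correlated over regions in 24 of 24 pairs of libraries with the same replicate number (0.116 to 0.448). After the set means were removed, 0 of 24 exceeded 0.1 (−0.09 to 0.043), so that the shared set, given by the labels, is what the numbers pair. No 2 lists were identical. The code was tested on simulated data. Python 3.11.15, numpy 2.4.6, pandas 2.3.3, pysam 0.24.0 and matplotlib 3.10.9 were used. The study's other assays were not used here.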

Additional observations from a re-analysis of the deposited data

Results flagged for a closer look

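The p300 effects at 2 Gata2 enhancers differed between the Tet2 states at an unadjusted p of 0.05 and not after adjustment. At the −77 kb element the p300 effect was −3.44 percentile points with Tet2 and 5.74 points without it, a difference of 9.18 points (exact permutation of Tet2 labels within p300 state and set, p = 0.0262). At the +9.5 kb element the effects were −2.23 and 0.497 points, a difference of 2.73 points (exact permutation p = 0.0463). Over the 17 differences tested, both adjusted p values were 0.394, so neither passed.

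Some single libraries lay apart from the 3 others of their genotype, by the gap to the nearest library over the range of the 4. In the Gata2 region count these were WT replicate 1 with 18 regions, beside 26 to 27, and TET2KO replicate 1 with 23, beside 26 in each other library. At the Gata2 −3.9 kb element, WT replicate 2 ranked at 88.55 and P300KO replicate 2 at 83.76. At the Gata1 +3.5 kb element, P300KO replicate 2, which has the shortest list, was at 0.0. At the Zfpm1 region 11.6 kb from the start, WT replicate 4 at 0.9305 and TET2KO replicate 2 at 13.77 were the only libraries of their genotypes with a peak. Of 68 groups of 4 checked, 7 held such a library. Chance gives about 1 in 20 for values with a continuous spread, a rate that does not hold where the 3 others are tied, as in 3 of these groups, and the Zfpm1 region was chosen for its values.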

How the results depend on the processing

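None of the 12 comparisons of region counts passed after adjustment, so calls here are those at an unadjusted exact permutation p of 0.05. Over 220 alternative values, 198 kept direction and side of that threshold and 5 were 0, with no direction, for p300 loss at Gata2 (1) and Gata3 (2) and Tet2 loss at Gata2 (2). With the strongest 50000 peaks of each list the sign turned for Tet2 loss at Gata1 (−0.125 regions), Gata2 (−0.375) and Gata3 (−0.250), and for p300 loss (0.375) and P300KO_TET2KO against TET2KO (0.250) at Gata2, while p300 loss at Zfpm1 was 1.25 regions and no longer past it. With −log10 q of at least 2 the last pair at Gata2 turned to 1.125 and 0.75. With 50% of a region covered, p300 loss at Gata1 was 1.75 regions and past it. With labels permuted over both sets, p300 loss at Zfpm1 stayed 3.0 regions and was not. Leaving out each library in turn gave −1.5 to 0.5 regions for p300 loss and −0.75 to 1.25 for Tet2 loss at Gata2, −0.25 to 0.75 for p300 loss at Gata3, and 2.62 to 3.38 for p300 loss at Zfpm1. The causes were not tested.

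The fit with the replicate number as a block changed no call in 12 of 12 count and 23 of 23 rank comparisons, and gave p = 0.0156 (exact permutation) for Zfpm1 and p300 loss, at 3.0 regions. In 6 of 16 libraries the best correlation was with a library of the same number.

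Of 412 values for 20 rank comparisons, 363 kept direction and side, not counting the 3 regions chosen for their order. Ranked by fold, the sign turned for p300 loss at −77 kb (−2.03), −3.9 kb (−2.13) and the proximal Gata3 start (−0.247), and for Tet2 loss at −3.9 kb (−2.16), the distal Gata2 promoter (−2.66) and +9.5 kb (−2.61). With −log10 q of at least 2 it turned for p300 loss at +9.5 kb (0.00617), Gata1 −25 kb (−0.994) and the Zfpm1 start (0.0319), and for Tet2 loss at Gata1 +3.5 kb (0.303) and the Zfpm1 start (0.158). Leaving out libraries turned Tet2 loss at −3.9 kb (−0.563 to 0.846), Gata1 −3.5 kb (−0.752 to 7.01), +3.5 kb (−8.07 to 6.81) and −25 kb (−0.698 to 4.64), and p300 loss at −25 kb (−1.51 to 3.83) and the proximal Gata3 start (−2.65 to 17.2). Without read counts, regions of low rank cannot be told from regions missed at the depth of a list.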
